A study of Mus musculus with 6 samples.

Results

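Vim, Cdh2, Pdgfra, Pdgfrb, Dcn, Lum, Postn and Acta2 are 8 genes commonly read as markers of fibroblasts and other mesenchymal cells. They were taken by gene name from a table of raw read counts for 31319 genes, in which each name had 1 row. The counts came from poly(A)-selected RNA of male C57BL/6 mice aged 5 months, and the tissue was main olfactory epithelium (MOE), which lines part of the nasal cavity and houses the neurons that sense odours. The 3 libraries called KD were from mice with the genotype given as miR-200b/a KD, a knockdown of the microRNAs miR-200b and miR-200a. The 3 libraries called NC were from the control group. The sources used here do not give how the knockdown was made, in which cells, or what NC mice received. The design holds 1 comparison, KD against NC, and here it asks how mesenchymal genes stood in tissue with less miR-200b/a.

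The microRNAs of the miR-200 family keep epithelial cells epithelial by repressing transcription factors that switch on mesenchymal genes. In the textbook form of that switch, called the epithelial-mesenchymal transition, cells lose E-cadherin (Cdh1) and gain N-cadherin (Cdh2) and the intermediate filament protein vimentin (Vim). In the nose, a fibroblast-rich lamina propria with vessels and glands lies under the epithelium, and it is a source of collagen and proteoglycan RNA in a dissected sample. Vim is also made by leukocytes, endothelium and glia, and Cdh2 by neurons and glia, so neither marks fibroblasts alone. In bulk tissue, fewer cells of a type and less RNA per cell cannot be told apart.

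The mature sequences of the targeted microRNAs show which letters a direct target would carry. A microRNA pairs with its target mainly through its seed, bases 2 to 8 from the 5′ end, shown in capitals (RefSeq, GRCm38.p6, written 5′ to 3′).
mmu-miR-200b-3p (chr4:156055685-156055706, minus strand): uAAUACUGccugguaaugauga
mmu-miR-200a-3p (chr4:156054911-156054932, minus strand): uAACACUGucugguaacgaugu
The seeds are AAUACUG in miR-200b, shared with miR-200c and miR-429, and AACACUG in miR-200a, shared with miR-141. The matching site letters in a transcript are CAGTATT and CAGTGTT. In the longest annotated 3′ UTR of each of the 8 genes, searched on the transcript strand, CAGTATT occurred in 0 of 8, and CAGTGTT in Pdgfra alone, at 2 places. The 2 Pdgfra sites are shown with their surroundings (GRCm38, plus strand, site in capitals). They are the only full matches to bases 2 to 8 found in these UTRs. Shorter matches, other annotated UTRs and coding sequence were not searched.
Pdgfra site at base 1443 of the 3′ UTR (chr5:75196527-75196556): ggtgctcttgaatagtCAGTGTTcagaaac
Pdgfra site at base 2515 of the 3′ UTR (chr5:75197599-75197628): catttttatttttaaaCAGTGTTttgactg
The Pdgfra 3′ UTR is long, at 3115 bases, and 39.5% of 1964 UTRs within 20% of that length held CAGTGTT at least once. Vim has a 3′ UTR of 342 bases, and 7.73% of 1164 UTRs of like length held either site. Over all 15850 tested genes with a UTR, 14.9% held CAGTATT and 19.6% CAGTGTT. A match in letters is a description of the UTR and was not tested as a binding site.

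Total counts ran from 15704791 to 17618540 per library, and the 8 genes together took between 0.112% and 0.153% of them. KD-2 stood apart, with 149 counts of Omp, the marker protein of mature olfactory neurons, against 24302 to 69388 in the other libraries. NC-1 differed in the opposite sense: its summed level of 11 leukocyte markers was 1473 counts per 1000000 (CPM, normalised by TMM), against 5203 to 12590 CPM elsewhere. Whether every library had a mouse of its own is not stated in the labels, so p-values reflect the spread among these 6 libraries, possibly a technical one.

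The 8 genes did not move as 1 group. Pdgfra, Pdgfrb and Vim had all 3 KD values above all 3 NC values, Cdh2 had all 3 below, and the groups overlapped for Dcn, Lum, Postn and Acta2. That is 3 of 8 above without overlap, where 15.3% of all 18444 tested genes were, and 1 of 8 below, where 18.6% were. None of the 8 passed the quasi-likelihood test of edgeR at 0.05 after Benjamini-Hochberg adjustment over all tested genes. Across the genome 0 genes passed, or 0% of those tested, and the smallest adjusted p was 0.276, although 1604 were higher and 1706 lower at an unadjusted p under 0.05. At an unadjusted p under 0.05 stood Pdgfra, Pdgfrb and Vim, all higher, beside 8.7% of all tested genes on that side. DESeq2 and limma-voom also called 0 of the 8, while over all genes limma-voom called 0 and DESeq2 1.89%, 151 higher and 196 lower. The median fitted log2 fold change of the 8 was 0.12, with 5 above 0 and 3 below, against a median of 0.01 over all tested genes. It was 0.04 without KD-3, 0.02 without NC-3, 0.19 without KD-2 and 0.22 without NC-2.

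**Figure D1:**
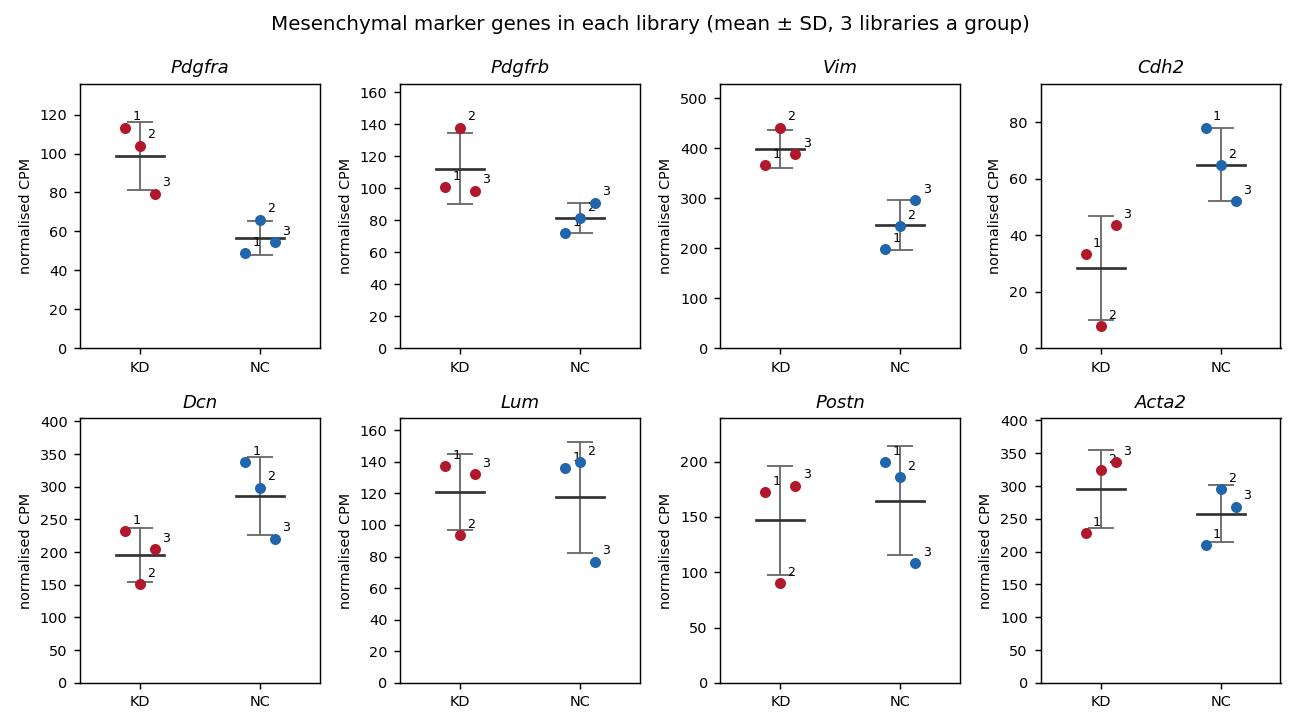
Normalised CPM of the 8 genes in each library, with KD in red and NC in blue, library numbers beside the points, and the mean with SD of 3 libraries. Pdgfra, Pdgfrb and Vim lie higher in all 3 KD libraries, Cdh2 lies lower, and the other 4 genes overlap between the groups.

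Of the receptors, Pdgfra had the smallest p among the 8 genes. It encodes platelet-derived growth factor receptor alpha, a tyrosine kinase of fibroblasts and their progenitors (ENSMUSG00000029231, chromosome 5, 75152292 to 75198215, plus strand). Its level was 113, 104 and 79.4 CPM across KD-1 to KD-3, against 48.8, 66.1 and 54.6 CPM across NC-1 to NC-3. The lowest KD library, KD-3, lay above the highest NC library, NC-2, and KD-2 was in the middle of its group. The means were 98.9 ± 17.5 and 56.5 ± 8.79 CPM (SD, n = 3 each), a ratio of 1.75. The fitted log2 fold change was 0.81 (SE 0.196), with an unadjusted p of 0.0057 and an adjusted p of 0.276 in edgeR. Its adjusted p was 0.057 in DESeq2 and 0.226 in limma-voom. The authors' deposited table lists a log2 fold change of 0.78 and an unadjusted p of 0.0016 for Pdgfra, in a list where 14.2% of genes had a p under 0.05. Of the exon bases of Pdgfra, 6.5% are also covered by exons of other annotated genes, nearly all on the other strand. The other 7 genes share none.

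Pdgfrb, the beta receptor, marks pericytes and smooth muscle of vessel walls as well as fibroblasts (ENSMUSG00000024620, chromosome 18, 61045150 to 61085061). It stood at 101, 138 and 98.6 CPM across KD-1 to KD-3, against 71.7, 81.3 and 91.0 CPM across NC-1 to NC-3. KD-2 was the highest library, and the gap between KD-3 and NC-3 was small. The fitted log2 fold change was 0.47 (SE 0.19, unadjusted p = 0.048, adjusted p = 0.277 in edgeR). Without KD-2 it was 0.31, with an unadjusted p of 0.12 in edgeR. Counts of Pdgfra per count of Pdgfrb were 1.13, 0.755 and 0.806 for KD-1 to KD-3, against 0.68, 0.812 and 0.6 for NC-1 to NC-3. Those ratios overlapped (two-sided exact permutation p = 0.3, where 3 against 3 libraries cannot give less than 0.1), so a difference between the 2 receptors in their response was not detectable here.

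Pdgfa, Pdgfb, Pdgfc and Pdgfd encode the 4 PDGF chains, the ligands of these receptors. All 4 overlapped between the groups, where 15.3% of all tested genes lay above and 18.6% below without overlap. As for the receptors, none was called by edgeR, which called 0 of all 18444 genes. Pdgfa, the main ligand of the alpha receptor, stood at 46.7 ± 2.69 CPM in KD against 40.5 ± 5.36 CPM in NC (log2 fold change 0.21). Pdgfb, made by endothelium and a ligand of both receptors, had 14.3, 29.0 and 15.5 CPM in KD and 6.17, 17.3 and 15.3 in NC (log2 fold change 0.60, SE 0.463). KD-2 was the highest and NC-1 the lowest library for Pdgfb. Pdgfc had a log2 fold change of -0.20 and Pdgfd of 0.12.

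Vim encodes vimentin, the intermediate filament protein of mesenchymal cells (ENSMUSG00000026728, chromosome 2, 13573927 to 13582826). Its level was 366, 441 and 388 CPM across KD-1 to KD-3, against 198, 244 and 296 CPM across NC-1 to NC-3. All 3 KD libraries lay above NC-3, the highest control. The means were 398 ± 38.6 and 246 ± 49.3 CPM (SD, n = 3 each), a ratio of 1.62. The fitted log2 fold change was 0.69 (SE 0.212, unadjusted p = 0.016, adjusted p = 0.276 in edgeR, 0.083 in DESeq2). The authors' deposited table lists 0.67 with an unadjusted p of 0.0041.

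Markers of leukocytes and endothelium, which also make vimentin, ran in the same direction. All 11 leukocyte markers were above 0 (median log2 fold change 1.0), and 5 did not overlap, beside 15.3% of all tested genes above. That median was 0.61 without NC-1, 1.63 without NC-3, and 0.33 without KD-2 and NC-1 together. Their summed level was 5322 to 12590 CPM in KD and 1473 to 8059 CPM in NC, and none was at 0 in any library. Jchain and Lyz2 made up most of that sum in every library. Ptprc, the pan-leukocyte phosphatase CD45, stood at 207, 201 and 157 CPM in KD and at 23.1, 83.6 and 114 in NC. Of 8 endothelial markers 7 were above 0 (median 0.75, or 0.36 without KD-2 and NC-1), 6 without overlap, beside the same 15.3%. Their sum was 236 to 359 CPM in KD and 119 to 216 in NC, again with none at 0. Pecam1, an endothelial adhesion molecule, stood at 107, 127 and 78.7 CPM in KD and at 28.1, 45.4 and 65.8 in NC. Within NC the order NC-1, NC-2, NC-3 from lowest to highest held for Vim, Ptprc and Pecam1, and also for Pdgfrb, Actb and Cdh1. Within KD the orders differed: Vim was lowest in KD-1, whereas Ptprc was highest in KD-1, and Ptprc and Pecam1 were lowest in KD-3. Counts of Vim per Ptprc count were 1.77, 2.19 and 2.47 in KD and 8.57, 2.92 and 2.59 in NC, lower in KD without overlap (two-sided exact permutation p = 0.1). Markers of ensheathing glia, a further source of vimentin, ran the other way, with 8 of 9 below 0. The part of these cells in the Vim values was not tested.

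Per count of Actb, the cytoskeletal beta-actin that most cell types make, Vim counts were 0.217, 0.179 and 0.222 in KD and 0.277, 0.197 and 0.155 in NC. The group means of that ratio, 0.206 ± 0.0234 and 0.209 ± 0.0623, were close and the libraries overlapped (two-sided exact permutation p = 1). Actb itself had 1684, 2460 and 1747 CPM in KD and 713, 1242 and 1918 in NC. Vimentin's relatives in the filament family showed no shared direction. Of 7 other tested intermediate filament genes, 4 were above 0 and 3 below. Nes, nestin of progenitor cells, stood at 7.07, 8.96 and 8.65 CPM in KD and at 5.92, 6.13 and 6.95 in NC, without overlap. Ina, the neuronal filament alpha-internexin, stood at 5.37, 0.23 and 7.44 CPM in KD and at 24.0, 14.6 and 10.8 in NC (log2 fold change -1.91, SE 0.962).

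**Figure D2:**
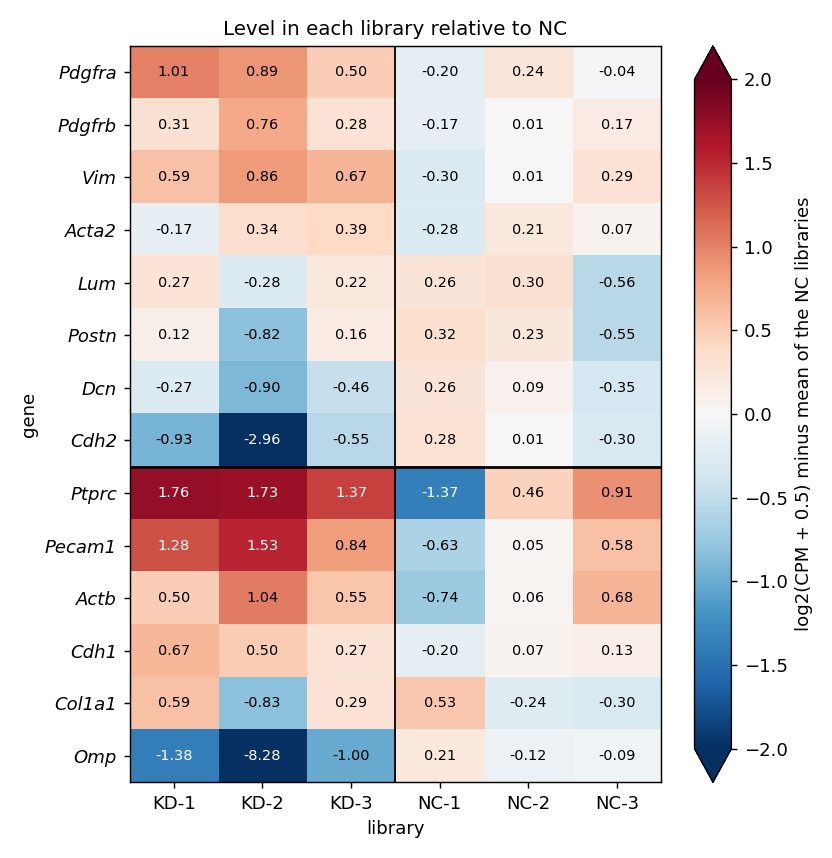
Level of the 8 genes (above the line) and of 6 marker genes of other kinds (below it) in each library, as log2(CPM + 0.5) relative to the NC mean, with red above and blue below it and the colour scale ending at 2. KD-2 is the lowest library for Cdh2 at -2.96 and for Omp at -8.28, while Vim and Pdgfrb are highest there.

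Cdh2, the neural cadherin or N-cadherin, stood on the opposite side from Vim (ENSMUSG00000024304, chromosome 18, 16588877 to 16809246). Its level was 33.4, 7.81 and 43.6 CPM across KD-1 to KD-3, against 78.0, 64.7 and 52.0 CPM across NC-1 to NC-3. KD-2 was far below the rest, and the other 2 KD libraries were also under NC-3, the lowest control. The means were 28.3 ± 18.4 and 64.9 ± 13 CPM (SD, n = 3 each), and the fitted log2 fold change was -1.20 (SE 0.581, unadjusted p = 0.083, adjusted p = 0.302 in edgeR). Without KD-2 it was -0.73 (SE 0.237, unadjusted p = 0.023, adjusted p = 0.33 in edgeR). Leaving out NC-1 as well gave -0.57 (unadjusted p = 0.036, adjusted p = 0.359 in edgeR).

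Genes of olfactory neurons also had lower fitted levels in KD. All 13 markers of mature olfactory neurons were below 0 (median log2 fold change -1.80, or -0.99 without KD-2 and NC-1). Of these, 12 did not overlap, beside 18.6% of all tested genes below. Their summed level was 145 to 4669 CPM in KD, lowest in KD-2, and 7960 to 12740 CPM in NC, and none was at 0 counts. Markers of ensheathing glia, which wrap olfactory axons, were below 0 in 8 of 9 (median -0.70, or -0.43 without KD-2 and NC-1), with sums of 144 to 203 CPM in KD and 181 to 277 in NC. The part of these cells in the Cdh2 values was not tested. Counts of Cdh2 per Omp count came to 0.0235 for KD-1, 0.0237 for KD-3 and between 0.015 and 0.0191 for the NC libraries. In KD-2, which had 149 Omp counts, the ratio was 0.685. Every KD ratio lay above every NC ratio, so Cdh2 was lowered less than Omp (two-sided exact permutation p = 0.1, the smallest possible).

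E-cadherin was higher where N-cadherin was lower. Cdh1, the adhesion molecule of epithelial cells, stood at 583, 519 and 441 CPM in KD and at 318, 384 and 402 in NC, without overlap (log2 fold change 0.48, SE 0.204, adjusted p = 0.28 in edgeR). All 7 epithelial markers, Cdh1 among them, were above 0 (median 0.78, or 0.47 without KD-2 and NC-1). Of these, 6 did not overlap, beside 15.3% of all tested genes above. Their sum was 2214 to 3165 CPM in KD and 1294 to 2075 in NC. Markers of sustentacular cells, the supporting cells of this epithelium, were mixed, with 3 above 0 and 4 below (median -0.87, or -0.31 without KD-2 and NC-1). Without overlap, 2 of those 7 lay above and 4 below, beside 15.3% and 18.6% of all tested genes. Those above were Hes1 (0.86) and Sox2 (0.39), while Sult1c1 (0.67) overlapped. Those below were Cyp1a2 (-1.27), Cyp2g1 (-1.22), Muc2 (-1.14) and Ermn (-0.87). Counts of Cdh2 per Cdh1 count were 0.0573, 0.0151 and 0.0989 in KD and 0.245, 0.168 and 0.129 in NC. No KD ratio reached the lowest NC ratio (two-sided exact permutation p = 0.1, again the smallest possible). Of 8 further cadherin genes, 2 lay above and 4 below without overlap, where 15.3% and 18.6% of all tested genes did. Among those below were Cdhr1, a cadherin of olfactory neurons (log2 fold change -1.60), and Cdh15 (-1.35). Cdh13 had 1.42 with overlap, and Cdh11, a cadherin of fibroblasts, had 0.09. Cdh5, the cadherin of endothelial junctions, stood at 51.3, 73.0 and 43.7 CPM in KD and at 14.4, 25.0 and 30.3 in NC. It was named after its values were seen, as the only cadherin that DESeq2 called (adjusted p = 0.0496 there, 0.276 in edgeR).

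Decorin and lumican are small leucine-rich proteoglycans that bind collagen fibrils and regulate their spacing. Their genes are neighbours on the plus strand of chromosome 10, Dcn at 97479609 to 97518143 (ENSMUSG00000019929) and Lum at 97565128 to 97572703 (ENSMUSG00000036446), with 46984 bases between them. Dcn stood at 232, 151 and 204 CPM across KD-1 to KD-3, against 337, 299 and 221 CPM across NC-1 to NC-3. KD-1 lay above NC-3, and those 2 libraries are the only overlap. The means were 196 ± 41.4 and 285 ± 59.4 CPM (SD, n = 3 each), with a fitted log2 fold change of -0.54 (SE 0.248, unadjusted p = 0.069, adjusted p = 0.289 in edgeR). Without KD-2 it was -0.36, and leaving out NC-1 as well gave -0.22.

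Lum stood at 137, 93.4 and 132 CPM across KD-1 to KD-3, against 136, 140 and 76.9 CPM across NC-1 to NC-3. Each group had 1 low library, KD-2 and NC-3, and 4 libraries lay within 132 to 140 CPM. The group means were 121 ± 23.9 and 118 ± 35.3 CPM, and the log2 fold change was 0.04 (SE 0.284, adjusted p = 0.939 in edgeR).

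The 2 neighbours stood in a different ratio in the 2 groups. Counts of Lum per count of Dcn were 0.59, 0.619 and 0.646 across KD-1 to KD-3, against 0.404, 0.468 and 0.348 across NC-1 to NC-3. Every KD library was above every NC library, and KD-2 was in the middle of its group. The mean ratios were 0.618 ± 0.028 and 0.407 ± 0.0596 (SD, n = 3 each), with a two-sided p of 0.1 in the exact permutation test, the smallest possible. In all, 12 count ratios were compared, chosen after the counts were seen, and 0 were under 0.05 (smallest adjusted p = 0.2). Pdgfra per Dcn count was 0.488, 0.69 and 0.389 in KD and 0.145, 0.221 and 0.247 in NC, and Vim per Dcn was 1.57, 2.92 and 1.9 against 0.587, 0.818 and 1.34. Neither overlapped (two-sided exact permutation p = 0.1 each).

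**Figure D3:**
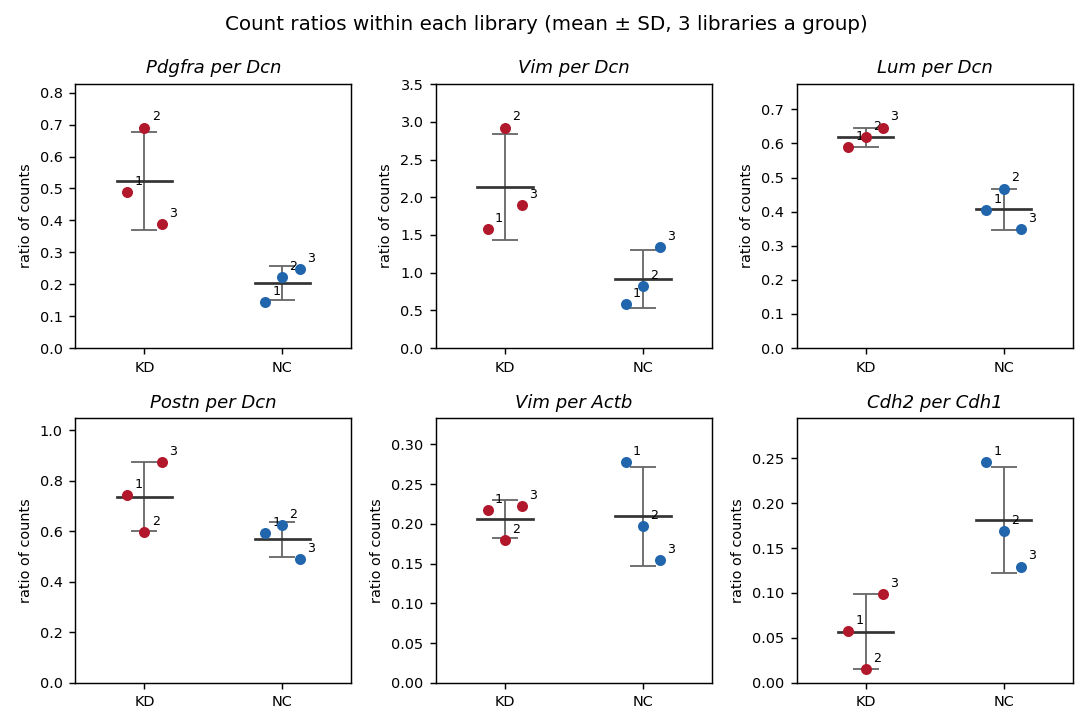
Ratios of raw counts of 2 genes within each library, which need no scaling between libraries, with KD in red, NC in blue and the mean with SD of 3 libraries. The Lum per Dcn ratio is 0.59 to 0.646 in KD and 0.348 to 0.468 in NC, while Vim per Actb overlaps between the groups.

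Relatives of decorin and lumican showed no shared direction. Of 12 further proteoglycan genes of the family, 10 were tested, 6 above and 4 below 0. Their median was 0.05 on the log2 scale (-0.10 without NC-3, 0.17 without KD-2). All 10 overlapped, where 15.3% of all tested genes lay above and 18.6% below without overlap. Bgn, biglycan, the closest relative of decorin, stood at 386, 289 and 416 CPM in KD and at 295, 281 and 256 in NC (log2 fold change 0.39). Chad, chondroadherin, had 0.38 and Podn, podocan, -0.49. Kera and Epyc lie on the far side of Lum: Kera had at most 0.102 CPM in any library and was not tested, and Epyc had -0.16.

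Postn encodes periostin, a matrix protein of fibroblasts in remodelling connective tissue and bone lining (ENSMUSG00000027750, chromosome 3, 54361109 to 54391037). It stood at 173, 90.0 and 178 CPM across KD-1 to KD-3, against 199, 186 and 108 CPM across NC-1 to NC-3. As for Lum, KD-2 and NC-3 were the low libraries, and the groups overlapped. The means were 147 ± 49.4 and 165 ± 49.2 CPM, and the fitted log2 fold change was -0.16 (SE 0.351, adjusted p = 0.785 in edgeR). Without KD-2 the sign turned, to 0.12. Counts of Lum per Postn count were 0.683 to 0.794 in 5 libraries and 1.04 in KD-2.

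Other matricellular genes, which signal to cells from the matrix, lay above 0 in 11 of 12, with a median log2 fold change of 0.49, and 3 of 12 lay above without overlap, beside 15.3% of all tested genes. Tgfbi, the nearest relative of periostin, stood at 204, 431 and 190 CPM in KD and at 16.0, 96.3 and 213 in NC (log2 fold change 1.34, SE 0.862). NC-1 was far below the other libraries. Thbs1, thrombospondin 1, stood at 151, 112 and 229 CPM in KD and at 72.2, 89.1 and 61.2 in NC, without overlap (1.15, SE 0.302, adjusted p = 0.276 in edgeR, 0.07 in DESeq2). Ccn1 and Ccn2, targets of mechanical signalling, both had 1.13 with overlap.

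Further fibroblast genes were set beside the 8. Of 25 listed genes 22 were tested, 19 above and 3 below 0, the median being 0.49 on the log2 scale. Above without overlap were 9 of the 22, beside 15.3% of all tested genes. Their summed level was 4369 to 6214 CPM in KD and 3882 to 4922 in NC. Col1a1, Col1a2 and Ly6a made up most of that sum in every library. The collagen genes of this list were abundant in every library, though they do not mark fibroblasts alone. Col1a1 stood at 2102, 790 and 1711 CPM in KD and at 2029, 1189 and 1138 in NC, with a log2 fold change of 0.08. Of 8 cartilage and bone genes, 5 were above and 3 below 0 (median 0.13), with sums of 246 to 284 CPM in KD and 211 to 222 in NC. The part of bone cells in the collagen values was not tested. Largest in fitted change within the fibroblast list were Ly6a (1.30), Pi16 (1.12) and Cd34 (1.08), 3 genes of adventitial fibroblasts. Of these, Ly6a and Cd34 are also made by endothelium. The 3 genes below 0 were Fap (-0.78), Mfap5 (-0.23) and Mfap4 (-0.03), all with overlap. Pi16 also overlapped, at 17.6, 62.8 and 19.9 CPM in KD and 1.67, 5.31 and 39.0 in NC (SE 1.13). Cd34 stood at 35.0, 54.5 and 31.6 CPM in KD and at 9.19, 19.5 and 28.4 in NC. Ly6a had 899, 1160 and 608 CPM against 55.2, 428 and 601, where NC-3 lay just under KD-3. Scara5, a ferritin receptor of adventitial fibroblasts, was named after its values were seen, as the only gene of the list that DESeq2 called (adjusted p = 0.042 there, 0.276 in edgeR). It stood at 57.8, 72.8 and 48.6 CPM in KD and at 24.4, 34.3 and 34.8 in NC.

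Acta2 encodes smooth muscle alpha-actin, found in vessel walls, gland myoepithelium and activated fibroblasts (ENSMUSG00000035783, chromosome 19, 34241090 to 34255590, minus strand). Its level was 228, 324 and 336 CPM across KD-1 to KD-3, against 210, 295 and 269 CPM across NC-1 to NC-3. KD-1 lay among the NC libraries. The means were 296 ± 59.3 and 258 ± 43.4 CPM, and the log2 fold change was 0.20 (SE 0.232, adjusted p = 0.608 in edgeR).

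Contractile partners of Acta2 had a median near 0. Of 12 smooth muscle genes 11 were tested, 8 above and 3 below 0, the median being 0.13 on the log2 scale. All 11 overlapped, where 15.3% of all tested genes lay above and 18.6% below without overlap. Their summed level was 451 to 573 CPM in KD and 450 to 514 in NC. Myh11, the smooth muscle myosin heavy chain, stood at 40.6, 53.8 and 78.0 CPM in KD and at 61.9, 69.6 and 58.9 in NC (-0.14). Des, desmin, had 0.59 and Tpm2, a tropomyosin, 0.51. Tagln, transgelin, usually an abundant smooth muscle transcript, had only 0.505 to 1.34 CPM. Of its exon bases 67.9% are also covered by exons of other genes on the opposite strand, Pcsk7 and Gm48529, so its counts were not read as a level.

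Pericytes, the mural cells of capillaries, share Pdgfrb with smooth muscle. Of 9 pericyte genes tested, 7 were above 0, and 4 of them, Abcc9, Mcam, Ndufa4l2 and Anpep, did not overlap, beside 15.3% of all tested genes above. The median log2 fold change of the 9 was 0.75. That median was 0.47 without KD-2 and 0.30 without KD-2 and NC-1 together. Their summed level was 2511 to 3692 CPM in KD and 924 to 2443 in NC. Abcc9, a potassium channel subunit of pericytes, stood at 10.7, 17.6 and 10.5 CPM in KD and at 6.6, 6.64 and 5.10 in NC (1.08, SE 0.288, adjusted p = 0.276 in edgeR). Mcam, an adhesion molecule of vessel walls, had 31.4, 62.5 and 37.7 CPM against 9.87, 25.1 and 31.3. Rgs5 had 2781, 2235 and 3466 CPM against 751, 2248 and 1608, where KD-2 lay just under NC-2.

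**Figure D4:**
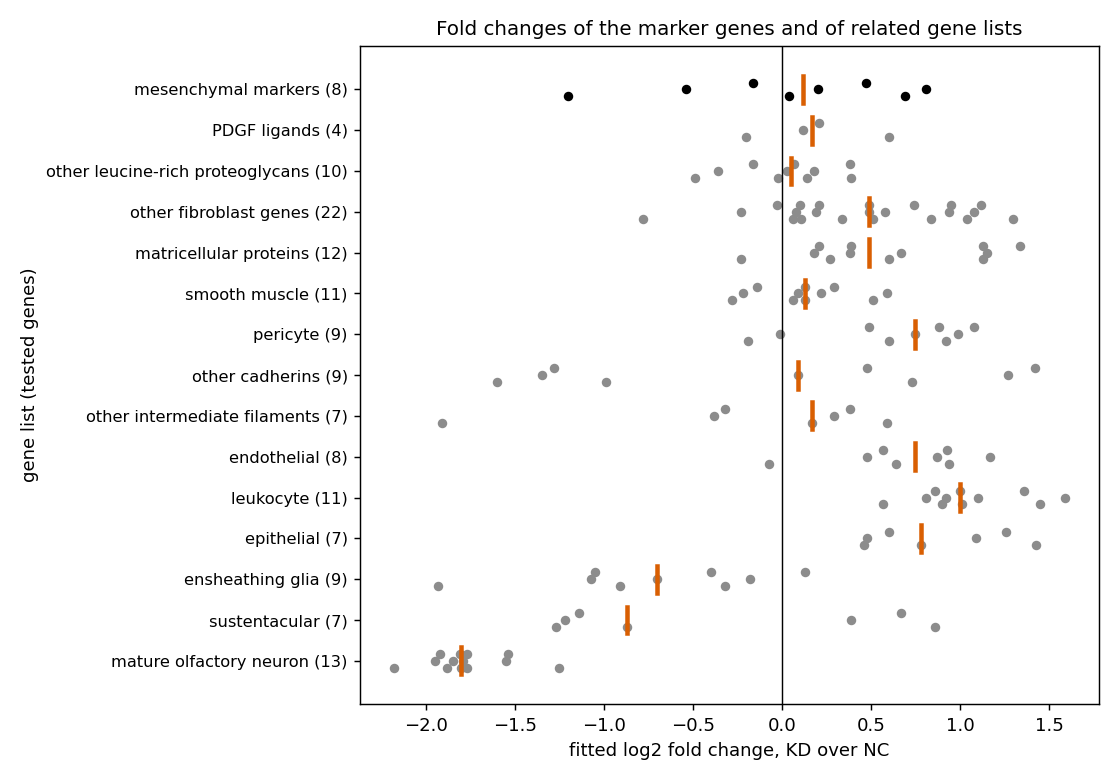
Fitted log2 fold change of KD over NC for each tested gene (points) in 15 gene lists, with the number of tested genes in brackets and the median as an orange bar; heights within a row only separate points. The 8 mesenchymal markers, in black, run from -1.20 to 0.81 on both sides of 0, while leukocyte markers lie above and mature olfactory neuron markers below it.

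Levels per kilobase of exon depend on the annotated exon length, taken here over all transcripts of a gene, so their order is tied to that annotation. Before that division, Dcn (285 CPM) was above Acta2 (258 CPM) in NC, and Vim (398 CPM) was above Acta2 (296 CPM) in KD. Per kilobase, Acta2 was highest in both groups, at 118 ± 19.8 CPM per kb in NC and 135 ± 27 in KD. In NC it was followed by Vim (51.9 ± 10.4), Dcn (48.9 ± 10.2) and Lum (48 ± 14.4), each overlapping with the next of the 3. Below them came Postn (18.9 ± 5.65), without overlap with Lum, and Pdgfrb (14.9 ± 1.76), which overlapped with Postn, and then Cdh2 (8.05 ± 1.61) and Pdgfra (5.63 ± 0.877), which also overlapped. In KD, Vim (83.9 ± 8.14) stood apart above Lum (49.4 ± 9.78) and Dcn (33.6 ± 7.1). Pdgfra (9.87 ± 1.75) was above Cdh2 (3.51 ± 2.29) without overlap, the reverse of their order in NC.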

How the data were processed

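The authors deposited 1 table with raw read counts per gene for each of 6 libraries of MOE poly(A) RNA. Per the file headers it also holds a signal column, the authors' mean of counts divided by size factors (recomputed to within 0.0142%), the authors' log2 fold change and the authors' unadjusted p-value. The submitters' processing notes name HTSeq 0.6.0, the aligners HISAT2 2.1.0, Bowtie2 2.2.3 and TopHat2, the packages DESeq and DESeq2, and the build GRCm38, without roles. The sources used here give neither annotation release nor strand setting, so reads of genes that overlap, antisense ones included, cannot be told apart.

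Groups came from the sample titles. The columns headed Control were taken as NC. All genes were fitted with edgeR 4.0.16 (R 4.3.3; TMM, default filter, quasi-likelihood, two-sided, no covariate), with Benjamini-Hochberg adjustment over 18444 genes. DESeq2 1.42.0, limma-voom (limma 3.58.1), other scalings, no filter, the replicate number as a block and leaving out libraries were alternatives. Scripts were tested on simulated counts. SEs were derived from the F statistic. The members, the 17 further lists (with up to 3 members of largest change named) and the tests were chosen with earlier results of these data known, so lists are described by counts and medians and not tested. Genes whose values prompted their naming are marked; Col1a1, Nes, Cdh11, Epyc, Kera, Myh11 and Rgs5 were also picked after values were seen. Positions, exon lengths and 3′ UTRs came from GENCODE M21 (GRCm38), with exon length taken over all annotated transcripts, microRNA sequences from RefSeq. The genes most like Acta2 are not reported here.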

Additional observations from a re-analysis of the deposited data

How the results depend on the processing

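None of the 8 genes passed 0.05 after adjustment in any of 14 alternatives, and the lowest adjusted p was 0.057, for Pdgfra in DESeq2. Pdgfra (0.64 to 0.95), Vim (0.50 to 0.85), Pdgfrb (0.23 to 0.56), Acta2 (0.03 to 0.35), Dcn (-0.69 to -0.22) and Cdh2 (-1.65 to -0.57) kept the sign of their log2 fold change in all 14. Pdgfra had an unadjusted p between 0.0012 and 0.022. Lum turned from 0.04 to -0.01 with upper-quartile factors, -0.09 with total counts, -0.06 without KD-1, -0.02 without KD-3 and -0.19 without NC-3. Postn turned from -0.16 to 0.12 without KD-2 and to 0.28 when NC-1 was left out as well. Leaving out 1 library at a time gave -0.19 to 0.22 for Lum and -0.39 to 0.12 for Postn. With total counts the median of all genes shifted to -0.14 and that of the 8 genes to -0.03. The members without overlap numbered 4 to 6. The count of all genes past the threshold was 0 in edgeR, 347 in DESeq2, and 3 in edgeR with KD-2 and NC-1 left out (Trim30d, Gm1966 and Trim12a); the cause was not tested. The deviations of same-numbered libraries correlated at 0.32, 0.113 and -0.256 across genes, so the numbers were not taken as a pairing, and only number 1 matched its own best. With the replicate block 0 genes passed, and the log2 fold change was 0.80 for Pdgfra and -1.47 for Cdh2. The limits set by depth and by the spread between libraries were not compared.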

Other observations

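The nearest gene of each member described here lay outside the set. With only 7 other members among 11447 candidates, that outcome was nearly fixed in advance and says little of the set. Likeness was the root mean square difference of log2(CPM + 0.5), centred on the mean of the 6 libraries, among 11447 other genes with a mean of at least 10 CPM. For Vim the nearest were Hs3st3b1, Elmo1 and Ramp2 (0.048 to 0.063), and the nearest of the other 7 genes was Pdgfrb (0.169), at rank 387. For Pdgfra they were P2ry14, Perp and S1pr1 (0.054 to 0.078), with Vim (0.245) at rank 503. For Pdgfrb they were Cap1, Yipf2 and Shb (0.038 to 0.039). For Cdh2 they were Cpeb1, Dtna and Rimklb (0.047 to 0.074), with Dcn (0.75) at rank 1133. For Dcn they were Tnks, Lgr4 and Dhx36 (0.036 to 0.037). Among the 8, the closest pair was Vim and Pdgfrb, followed by Lum and Postn (0.197). Lum was nearest to Haus2, Zfp942 and Ptprz1 (0.096 to 0.125), with Postn at rank 131, and Postn to Nebl, Tfap2b and Abca9 (0.094 to 0.118), with Lum at rank 39. With 6 libraries and this many candidates, a close match says nothing of shared cells or control.

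S100a4, often used as a fibroblast marker, had 0 or 1 count in every library, and 51.7% of its exon bases are also covered by exons of Gm42674 on the same strand, so it was not read as a level. Of the skeletal muscle transcripts, Myh1 had 3.33 CPM and Myh2 2.71 CPM in NC-1 and 0 counts in the other 5 libraries. Tnni2, of fast skeletal muscle, was instead lowest in NC-1 at 1.05 CPM and highest in KD-1 at 2.98 CPM.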
